A study of Mus musculus with 21 samples.

Results

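Levels were examined for 9 mouse genes of the extracellular matrix, which are the microfibril genes Mfap2, Mfap5, Fbn1 and Mfap4, the elastin gene Eln, the small leucine-rich proteoglycan genes Dcn, Lum and Ogn, and the periostin gene Postn. They are 9 of the 40770 rows of the linc-Brn1b table and 9 of the 42760 rows of each of the Peril and Fendrr tables, and each symbol was found once in every table. The set was chosen by gene name and on a measured value: the low level of Mfap4 in linc-Brn1b knockout brain at P7 is what drew attention to it, so the values of that comparison are given as a description. RNA-seq was made from mouse strains in which a long noncoding RNA gene had been replaced by a lacZ reporter cassette, and wild-type littermates were sequenced beside homozygous knockouts.

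The Peril strain gave whole brain at E18.5 (E, embryonic day), and the Fendrr strain gave lung at E14.5. The linc-Brn1b strain gave telencephalon at E13.5 and at E15.5 and whole brain at postnatal day (P) 7. The labels name the Peril strain linc-Sox2 and the Fendrr strain linc-Foxf1a. They list 2 libraries per genotype, tissue and age, and 3 for the linc-Brn1b knockout at E15.5. The study's results section gives fewer for that group, and which libraries entered its pooled level is not known. All 3 deletions were constitutive, present in every cell from conception. The targeted embryonic stem cells were a hybrid of 129S6SvEv and C57BL/6N, and the mice were backcrossed with C57BL/6J, so all groups carry a mixed background. The deposited tables hold 1 pooled level per group, in FPKM (fragments per kilobase of transcript, scaled to the number of mapped fragments), and no level per library. No spread, interval or test could therefore be computed, the depth behind a level is unknown, and every difference given here compares 2 pooled levels.

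Microfibrils are thin fibrils of fibrillin that run through most connective tissues, and in elastic tissues such as lung and artery they form the scaffold on which elastin is laid down. The microfibril-associated proteins bind fibrillin or elastin, and the small leucine-rich proteoglycans decorate collagen fibrils and control their width and spacing. In brain several of these genes, though not all, are known from the fibroblasts of the meninges and from vessel walls. In lung the genes are products of the mesenchyme.

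The genes lie on 8 chromosomes of the mouse (mm9, GENCODE annotation of NCBIM37). Fbn1, which encodes fibrillin-1, has 66 exons on the minus strand at chr2:125126330-125333729, and an annotated gene on the other strand, Gm9913, shares 2442 exonic bases with it. Mfap2 has 9 exons at chr4:140566333-140571899, Mfap5 has 10 at chr6:122455863-122479308, and Postn has 23 at chr3:54165031-54194961, all on the plus strand. Eln has 37 exons at chr5:135179651-135223111 on the minus strand. Mfap4 is a compact gene of 5 exons at chr11:61298933-61302402 on the plus strand, and its last 89 bases overlap exonic sequence of Mapk7 on the minus strand. Dcn at chr10:96942245-96980777 and Lum at chr10:97028135-97035337 are neighbours on the plus strand, 47357 bases apart, in a cluster that continues with Kera and Epyc. Ogn at chr13:49703440-49719869 is the last of the row Ecm2, Aspn, Omd and Ogn on the plus strand, and the whole row lies inside Cenpp on the minus strand, with no exonic base of Ogn shared with Cenpp. The library kit is not stated to keep the strand, so reads of Mfap4 and Mapk7, or of Ogn and Cenpp introns, may not be told apart, and the levels of these neighbours are given beside the results.

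Promoter sequences were read from RefSeq (GRCm38.p6), in which 4 of the 9 genes had an entry. The 250 bases before the annotated start are shown for them because these genes had different courses in brain. Mfap2 was lower in P7 brain than in E15.5 telencephalon, Fbn1 stayed close to its level, and Postn and Ogn were higher. Where RefSeq gives more than 1 start, the one furthest along the gene was taken. Each sequence reads 5′ to 3′ on the strand of its gene, and capitals mark TATAAA or GGGCGG on either strand, including overlapping matches.
Mfap2, chr4:141010431-141010680, plus strand: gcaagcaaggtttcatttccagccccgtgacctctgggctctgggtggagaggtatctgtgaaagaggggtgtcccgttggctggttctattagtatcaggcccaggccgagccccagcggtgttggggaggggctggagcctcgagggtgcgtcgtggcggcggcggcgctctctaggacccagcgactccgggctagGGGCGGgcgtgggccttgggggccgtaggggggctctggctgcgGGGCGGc
Fbn1, chr2:125506439-125506688, minus strand: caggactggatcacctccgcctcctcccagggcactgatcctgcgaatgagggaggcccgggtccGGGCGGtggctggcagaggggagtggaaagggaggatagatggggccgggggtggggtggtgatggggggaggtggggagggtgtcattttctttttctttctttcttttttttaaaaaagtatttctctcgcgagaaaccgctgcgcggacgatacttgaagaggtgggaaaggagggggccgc
Ogn, chr13:49607765-49608014, plus strand: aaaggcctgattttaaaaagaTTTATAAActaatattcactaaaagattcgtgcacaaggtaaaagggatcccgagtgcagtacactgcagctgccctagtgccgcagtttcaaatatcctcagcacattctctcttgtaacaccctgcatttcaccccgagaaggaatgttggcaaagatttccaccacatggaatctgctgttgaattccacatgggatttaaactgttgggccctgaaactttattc
Postn, chr3:54360857-54361106, plus strand: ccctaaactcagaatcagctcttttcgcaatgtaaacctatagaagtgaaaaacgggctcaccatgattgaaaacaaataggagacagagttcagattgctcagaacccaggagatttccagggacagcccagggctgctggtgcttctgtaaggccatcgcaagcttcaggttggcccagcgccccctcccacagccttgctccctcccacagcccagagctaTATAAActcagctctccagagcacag
The Mfap2 window held 18 CG dinucleotides and the Fbn1 window 13, against 4 each in the printed Ogn and Postn windows and a median of 6 over all 32851 RefSeq windows of this length. GGGCGG, the core of a GC box, was found in the Mfap2 and Fbn1 windows and in 32.7% of all windows. TATAAA, the core of a TATA box, was found in the Ogn and Postn windows and in 12.4% of all windows. In Postn it began 26 bases before the start, and in Ogn its matches began 229 and 227 bases before it. The values depend on the start that was taken: the other Mfap2 start had 5 CG dinucleotides and no GGGCGG, and the other Postn start had 3 and no TATAAA. These matches describe the letters of the windows only.

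Across the series, the linc-Brn1b row stood at 1.60, 2.50 and 0.799 FPKM in wild type at E13.5, E15.5 and P7 and was listed at 0 in all 3 knockouts. The row named linc-Foxf1a-1 stood at 0.352 FPKM in wild-type and 0.0100 FPKM in Fendrr knockout lung, and the 4 rows named linc-Sox2-1 to linc-Sox2-4 were at or below 0.320 FPKM in both genotypes of the Peril brain, so they check the Peril label little. The Y chromosome genes Uty, Kdm5d, Eif2s3y and Ddx3y summed to between 21.0 and 49.2 FPKM in 1 genotype and to at most 0.0357 FPKM in the other in every comparison, on the knockout side for Peril and for linc-Brn1b at E15.5 and P7. Genotype and the sex of the animals therefore cannot be told apart in any of the 5 knockout comparisons, nor can age and sex between E13.5 and E15.5, since the sum went from 49.2 to 0.00662 FPKM in wild type and from 0.0133 to 21.0 FPKM in knockout. The 6 telencephalon markers summed to between 413 and 484 FPKM in the telencephalon groups and to at most 0.944 FPKM in lung, where the 5 lung epithelium markers summed to 1033 FPKM in wild type against 1057 FPKM in knockout. Defining genes of some tissues were low or near 0 in groups whose label would hold them. These were hindbrain Hox genes in the linc-Brn1b knockout labelled whole brain at P7, and choroid plexus genes in the linc-Brn1b knockout telencephalon at E15.5, with values given beside the members. A difference is given as the difference of log2(FPKM + 1) between 2 groups, and a gene is called past the fold when this is 1.5-fold or more and its mean level is at least 1 FPKM. In bulk tissue, fewer cells of a type and less RNA per cell cannot be told apart.

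Each of the 9 genes had its highest level in lung, although the tables were normalized separately and levels set across them are only a rough guide. In wild-type lung they ranged from 5.76 FPKM for Mfap5 to 364 FPKM for Mfap4, a gene whose product binds elastin and fibrillin. Mfap4 was the 181st highest of 42760 rows there, and Eln at 171 FPKM and Mfap2 at 155 FPKM followed. Dcn stood at 135 FPKM, Postn at 78.6 FPKM, Ogn at 56.6 FPKM, Fbn1 at 44.5 FPKM and Lum at 40.2 FPKM. Mfap4, Eln and Mfap2 were thus at the top of the set in lung, with Fbn1 in the lower part and Mfap5 last.

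In the embryonic telencephalon the order was different. Mfap2 led in all 4 groups, at 92.7 FPKM in wild type against 85.0 FPKM in knockout at E13.5 and at 71.7 and 71.2 FPKM at E15.5, and Mfap4 came next at between 27.6 and 36.0 FPKM. Together they made up 75.3% of the summed level of the 9 genes in wild type at E13.5 and 89.8% at E15.5, against 27.5% in wild-type P7 brain, where Dcn and Eln came first. Mfap2 encodes a small glycoprotein of fibrillin microfibrils, and its level was 27.1 times that of Fbn1 in wild type at E13.5 and 31.2 times at E15.5. The same ratio, per length and within a group, was 3.86 in wild-type P7 brain, 10.5 in wild-type E18.5 brain and 3.49 in wild-type lung. The telencephalon therefore had much Mfap2 transcript for little Fbn1 transcript, and the order of levels carries no measured spread.

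**Figure D1:**
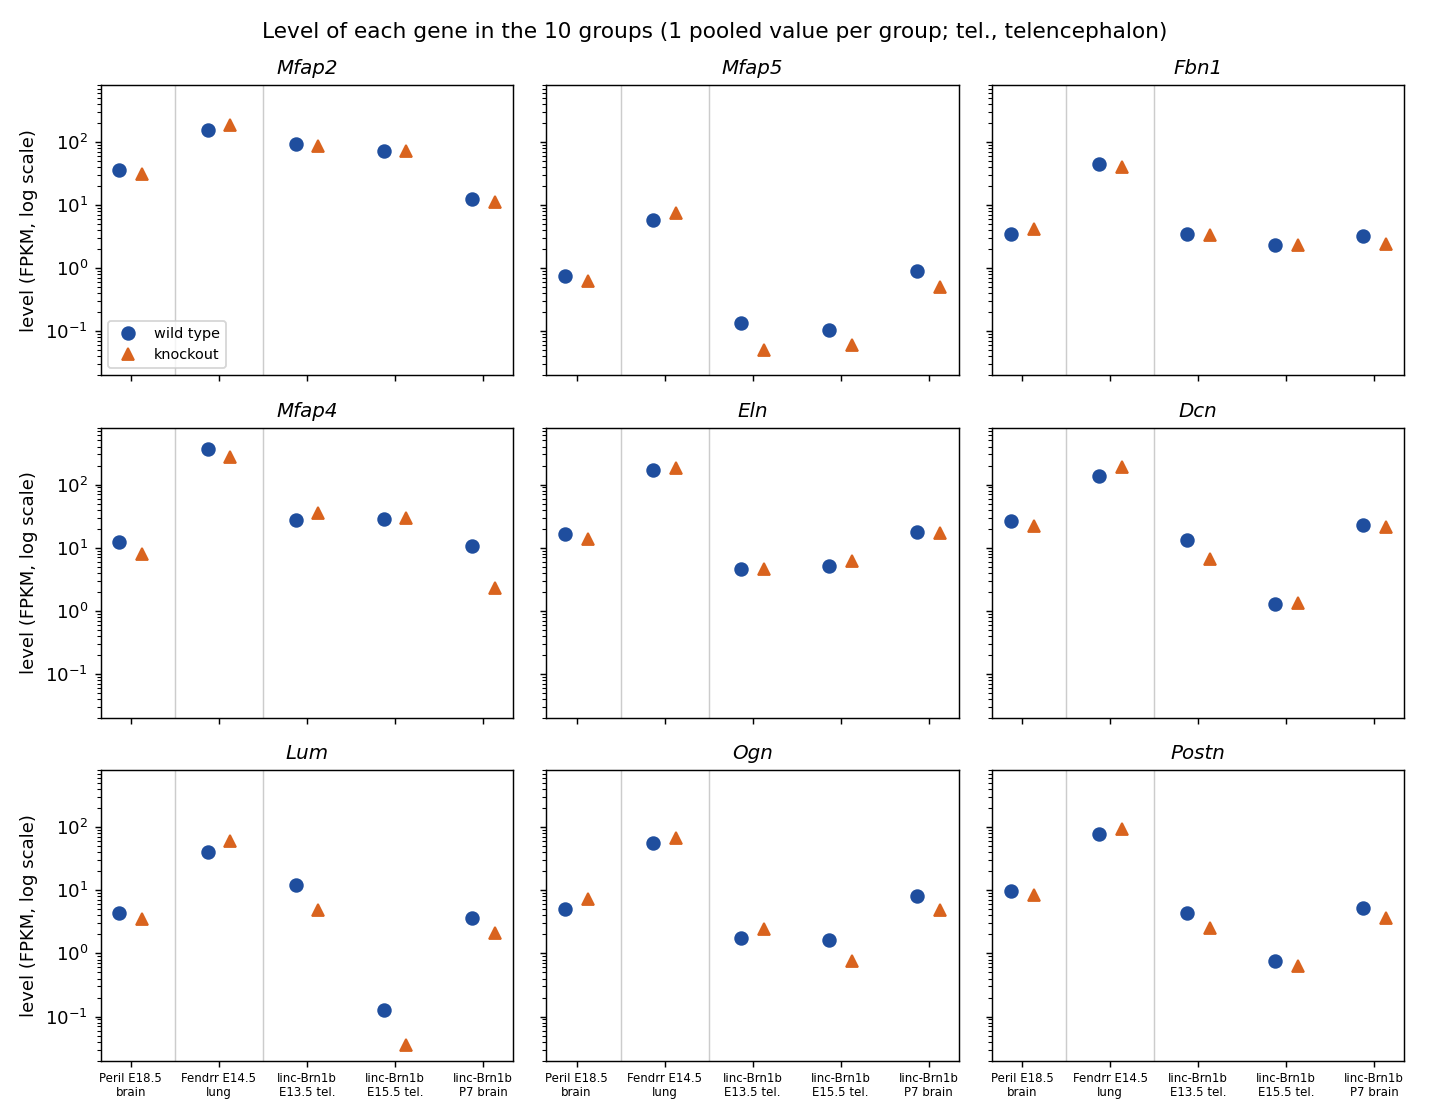
Level in FPKM (log axis) of each of the 9 genes in the 5 tissues and ages, with circles for wild type and triangles for knockout, each 1 pooled value per group with no error bar available. Vertical lines part the 3 separately normalized tables. All 9 genes are highest in lung, Mfap2 and Mfap4 lead in telencephalon, and the knockout triangle of Mfap4 in P7 brain, at 2.29 FPKM, lies below its circle at 10.8 FPKM.

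In linc-Brn1b knockout brain at P7, Mfap4 was the member furthest from its wild-type level. It stood at 10.8 FPKM in wild type against 2.29 FPKM in knockout, which is 21.2% of wild type and a difference of -1.84 on the log2 scale, and only 15 of the 14175 genes at 1 FPKM or more had a lower difference. Mapk7, whose exon overlaps the end of Mfap4, stood at 12.9 FPKM in wild type against 14.3 FPKM in knockout, so it did not share the low level. The other microfibril genes were closer to wild type. Mfap2 stood at 12.5 and 11.2 FPKM in wild type and knockout, Fbn1 at 3.23 and 2.40 FPKM, and Mfap5, the second microfibril-associated glycoprotein, at 0.891 and 0.499 FPKM, below the 1 FPKM minimum.

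Eln, the gene of the elastic protein itself, differed by -0.07, from 17.9 FPKM in wild type to 17.0 FPKM in knockout. Dcn, which encodes decorin, the proteoglycan that binds collagen I and TGF-beta, stood at 22.5 and 21.1 FPKM. Lum encodes lumican, and its level was 3.66 FPKM in wild type against 2.08 FPKM in knockout, a difference of -0.60. Ogn encodes osteoglycin, also called mimecan, and stood at 8.05 and 4.96 FPKM, a difference of -0.60. Cenpp, the gene around Ogn, stood at 3.39 FPKM in wild type against 1.91 FPKM in knockout, so it was lower as well. Postn encodes a matricellular protein that links collagen, fibronectin and tenascin-C, and stood at 5.17 and 3.67 FPKM. In all, 3 of the 8 members at 1 FPKM or more were past the fold and lower (Mfap4, Lum and Ogn), beside 2.24% of all genes, and none was past the fold and higher, beside 2.08%. The median difference of the 8 was -0.36, and that of all genes was 0.01. Since the set was chosen on Mfap4 in this comparison, nothing is read from these counts.

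The low Mfap4 level at P7 came with low levels of genes of other regions. Among the 15 genes with a lower difference were the pituitary hormone genes Pomc (26.6 to 1.15 FPKM) and Gh (6.19 to 0.0157 FPKM), the Purkinje cell gene Pcp2 (14.7 to 1.48 FPKM) and the hindbrain genes Hoxa5 (5.06 FPKM to a listed 0) and Hoxb5 (3.61 to 0.0165 FPKM). These were named after their values were seen, and 3 lists were then written around them. The lists hold these genes, so their sums in part restate the levels just given. Of 16 cerebellum genes, 12 were at 1 FPKM or more and all 12 were lower in knockout, 10 of them past the fold, with a sum of 201 FPKM in wild type against 99.0 FPKM in knockout. The 16 hindbrain and spinal Hox genes summed to 19.3 FPKM in wild type against 0.0907 FPKM in knockout, with 10 of them listed at 0 in knockout. The 9 pituitary genes summed to 34.5 and 1.63 FPKM, with Pomc and Gh the 2 at 1 FPKM or more. By contrast the 6 telencephalon markers summed to 85.2 FPKM in wild type against 96.6 FPKM in knockout, with none past the fold. How much of the Mfap4 difference goes with these regions was not tested.

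Fibroblast genes were also lower in the P7 knockout, by less. All 8 fibrillar and beaded collagen genes were lower, with a sum of 76.3 FPKM in wild type against 54.4 FPKM in knockout, and 2 of them were past the fold, Col3a1 (16.0 to 8.95 FPKM) and Col1a2 (21.0 to 13.2 FPKM). The 8 meningeal fibroblast markers summed to 36.5 and 27.4 FPKM, with 5 at 1 FPKM or more, all 5 lower and none past the fold. The 5 choroid plexus markers summed to 453 and 309 FPKM, 4 of them lower and 1 higher, with only Folr1 past the fold, at 5.20 and 3.12 FPKM. Their part in the lower Lum and Ogn levels was not tested.

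**Figure D2:**
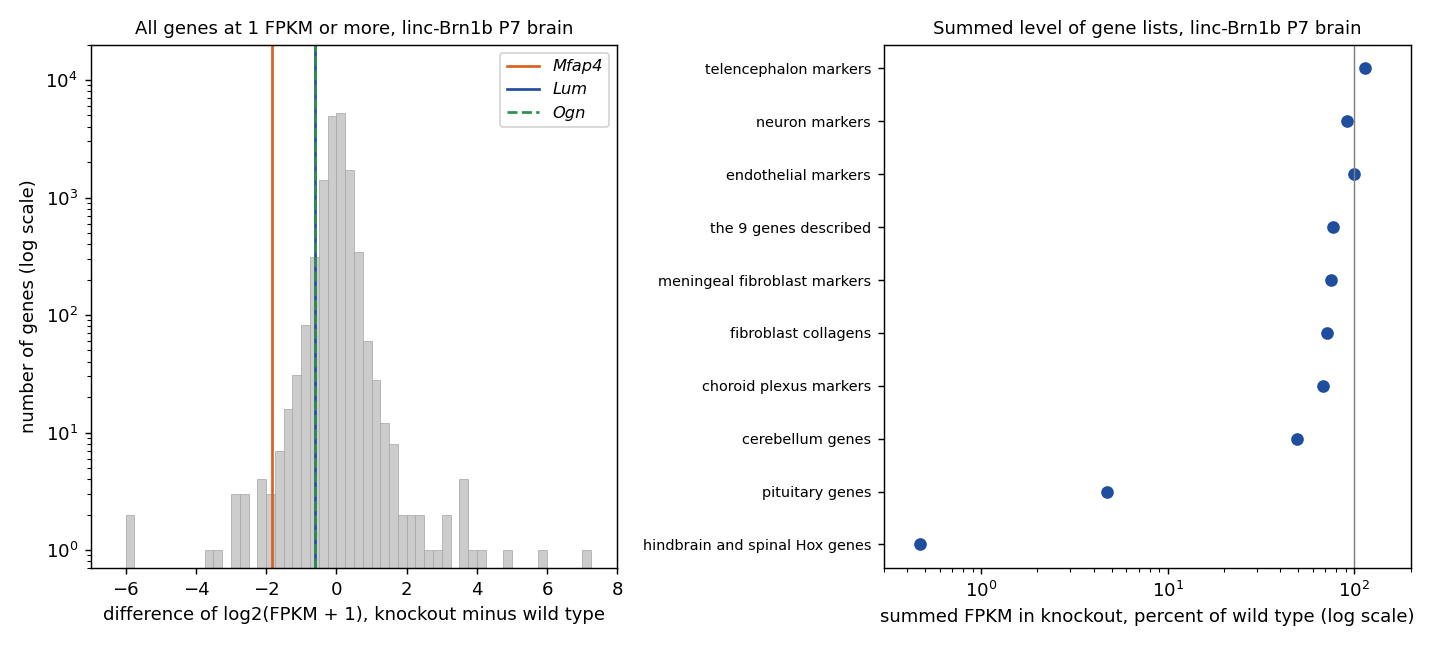
Left, histogram of the difference of log2(FPKM + 1), knockout minus wild type, over the 14175 genes at 1 FPKM or more in linc-Brn1b P7 brain, with a log count axis and vertical lines for Mfap4, Lum and Ogn. Right, the summed FPKM of gene lists in knockout as a percent of wild type (log axis). The Hox, pituitary and cerebellum lists were written after values were seen and hold genes picked for being low in this comparison. The Mfap4 line at -1.84 lies in the sparse low tail while Lum and Ogn lie at -0.60, and the Hox, pituitary and cerebellum lists lie at 0.470%, 4.73% and 49.1% of wild type, against 77.0% for the 9 genes summed.

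The other gene lists of the matrix are given for P7 by their counts. Of the 22 elastic fibre and microfibril partners, such as fibulins, latent TGF-beta binding proteins and lysyl oxidases, 16 were at 1 FPKM or more and none was past the fold, with 11 lower, 5 higher and a median of -0.10. Of the 15 other small leucine-rich proteoglycan genes 8 were measured at that level, 6 were lower and none was past the fold. The 4 other genes with an Mfap name, which encode unrelated proteins, were all slightly higher, with a median of 0.06. Of 13 matricellular genes, 11 were at 1 FPKM or more and 3 were past the fold. Tnc, the tenascin-C gene, stood at 19.6 and 9.71 FPKM, Spp1, the osteopontin gene, at 8.36 FPKM in knockout with a difference of -1.02, and Ctgf, a connective tissue growth factor, at 7.58 and 12.7 FPKM, so that Tnc and Spp1 were past the fold and lower and Ctgf past it and higher. None of the 13 measured TGF-beta pathway genes or the 7 matrix protease and inhibitor genes was past the fold.

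At E13.5 Lum, Dcn and Postn were lower in linc-Brn1b knockout telencephalon, and Mfap4 and Ogn were not. Lum stood at 12.0 FPKM in wild type against 4.80 FPKM in knockout, a difference of -1.16, and Dcn at 13.2 and 6.68 FPKM, a difference of -0.88. Postn stood at 4.43 and 2.53 FPKM, a difference of -0.62. These 3 of 8 measured members were past the fold and lower, beside 5.52% of all genes, and none was past the fold and higher, beside 1.55%.

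The remaining members at E13.5 lay within the fold. Mfap4 stood at 27.6 FPKM in wild type against 36.0 FPKM in knockout, a difference of 0.37. Ogn stood at 1.79 and 2.42 FPKM, a difference of 0.29. Of the other small leucine-rich proteoglycans, 4 were at 1 FPKM or more, 3 of them higher, with a median of 0.16 and none past the fold. Mfap2 differed by -0.12, Fbn1 by -0.02 and Eln by -0.01, and all 3 changed sign when FPKM was rescaled to TPM, a scale on which every group has the same total, to 0.06, 0.15 and 0.16. Mfap5 was far below 1 FPKM, at 0.136 and 0.0508 FPKM. Members of this set therefore stood on both sides of the wild-type level.

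The E13.5 comparison depended on the scaling. The deposited FPKM of all genes summed to 434191 in wild type and 381511 in knockout, and rescaling to TPM moved the median difference of all genes from 0.06 to 0.24. Of the genes past the fold, 21.9% were higher as deposited and 66.5% after rescaling. Lum at -1.08 and Dcn at -0.76 stayed past the fold on that scale, and Postn at -0.55 did not.

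Lum, Dcn and Postn were lower at E13.5 together with collagen and meningeal genes. The values of these other genes are as deposited and were not rescaled to TPM. All 8 fibroblast collagens were lower, with a sum of 96.6 FPKM in wild type against 58.2 FPKM in knockout, and Col3a1 (38.5 to 19.3 FPKM), Col1a1 (11.9 to 6.81 FPKM) and Col1a2 (17.8 to 11.2 FPKM) were past the fold. The 8 meningeal fibroblast markers summed to 41.2 and 24.3 FPKM, and all 4 at 1 FPKM or more were lower, with Slc6a13, a GABA transporter of the meninges, at 2.37 and 0.800 FPKM and Crabp2, a retinoic acid binding protein, at 32.6 and 20.2 FPKM past the fold. Lox, the enzyme that crosslinks collagen and elastin, stood at 3.52 and 1.89 FPKM and was the only 1 of 16 measured elastic fibre partners past the fold. The 8 endothelial markers were all lower as well, summing to 71.1 and 48.3 FPKM. Of the 2 erythroid markers at 1 FPKM or more, Hbb-b1 was past the fold and lower, at 106 and 34.8 FPKM. The other was higher in knockout, with a difference of 0.16 that lay within the fold. The part of these other cell types in the low Lum, Dcn and Postn levels was not tested.

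At E15.5 fewer of all genes were past the fold than in the other knockout comparisons. None of the 6 members at 1 FPKM or more was past the fold in either direction, beside 0.200% of all genes higher and 0.274% lower, and their median difference was 0.02. Mfap2 stood at 71.7 and 71.2 FPKM in wild type and knockout, Mfap4 at 28.4 and 29.4 FPKM, and Fbn1 at 2.30 and 2.29 FPKM. Eln stood at 5.20 and 6.21 FPKM, and Dcn at 1.26 and 1.32 FPKM.

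Ogn came closest to the fold at E15.5, at 1.63 FPKM in wild type against 0.757 FPKM in knockout, a difference of -0.58 that passed the fold with a pseudocount of 0.1 FPKM, after centring and on the TPM scale, while Cenpp around it stood at 7.08 FPKM in both. Lum at 0.129 and 0.0360 FPKM, Postn at 0.746 and 0.626 FPKM and Mfap5 at 0.103 and 0.0612 FPKM were below the minimum. The meningeal markers summed to 6.13 and 6.76 FPKM and the fibroblast collagens to 9.31 and 8.57 FPKM, so both were low in both genotypes. The choroid plexus markers summed to 242 FPKM in wild type against 2.12 FPKM in knockout, with all 4 measured ones past the fold and lower. The part of the choroid plexus in the levels of the 9 genes was not tested.

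In Peril knockout brain at E18.5 no member was past the fold in either direction, beside 0.958% of all genes higher and 0.666% lower. Mfap4 was again the lowest, at 12.4 FPKM in wild type against 8.08 FPKM in knockout, a difference of -0.56 that falls just short of 1.5-fold on the log2(FPKM + 1) scale and passes it after rescaling to TPM. The pseudocount stays at 1 on the TPM scale and weighs less there, so rescaling changes more than the totals. Mapk7 stood at 22.1 and 23.1 FPKM there. Ogn was the member furthest to the other side, at 5.04 and 7.26 FPKM, a difference of 0.45, with Cenpp at 2.93 and 2.91 FPKM.

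The rest of the set lay near wild type in the Peril brain. Mfap2 stood at 36.1 and 31.6 FPKM, Dcn at 26.7 and 22.2 FPKM, Eln at 16.7 FPKM in wild type and 80.8% of that in knockout, Postn at 9.79 and 8.52 FPKM and Lum at 4.39 and 3.46 FPKM. Fbn1 was slightly higher in knockout, at 3.44 and 4.22 FPKM, and Mfap5 was below the minimum at 0.759 and 0.618 FPKM. The median over the 8 measured members was -0.22 and that of all genes 0.00. The meningeal markers summed to 53.8 and 40.4 FPKM, all 7 measured ones being lower, and the fibroblast collagens to 101 and 79.6 FPKM, with no gene of either list past the fold. The Hox genes summed to 7.20 FPKM in wild type against 29.8 FPKM in knockout, the reverse of the P7 linc-Brn1b brain, whereas 12 of 13 measured cerebellum genes were lower, 1 past the fold, as all 12 measured ones were there. The choroid plexus markers summed to 828 and 568 FPKM with all 4 measured ones lower, and the 8 endothelial markers, all lower, to 94.5 and 79.0 FPKM. The 6 mural markers, all lower and 1 past the fold, summed to 49.9 and 36.6 FPKM, and the erythroid markers to 93.6 and 56.1 FPKM. Their part was not tested.

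In Fendrr knockout lung 7 of the 9 members stood above wild type, and Mfap4 and Fbn1 stood below it. Lum, at 40.2 FPKM in wild type against 61.3 FPKM in knockout, was 1 of 9 members past the fold and higher, beside 1.41% of all genes, and none was past the fold and lower, beside 0.808%. Its difference of 0.60 was at the edge of the fold and lay within it after rescaling to TPM. Dcn stood at 135 and 192 FPKM, a difference of 0.51, and Ogn at 56.6 and 66.9 FPKM, a difference of 0.24. The 15 other small leucine-rich proteoglycans summed to 303 and 290 FPKM, and the 7 measured ones had a median of 0.02 with none past the fold. Mfap4 stood at 364 and 273 FPKM, which is 75.0% of wild type and a difference of -0.41, and Mapk7 at 23.8 and 22.8 FPKM.

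The elastin and other microfibril genes lay within the fold in lung, as did Postn. Eln stood at 171 and 182 FPKM, Fbn1 at 44.5 and 40.8 FPKM, Mfap2 at 155 and 186 FPKM, Mfap5 at 5.76 and 7.50 FPKM and Postn at 78.6 and 94.2 FPKM, with differences of 0.09, -0.12, 0.26, 0.33 and 0.26. The median of the 9 was 0.26, against 0.00 for all genes, and none of the 21 measured elastic fibre partners was past the fold. Muscle genes also differed between these groups. The 5 cardiac markers summed to 292 FPKM in wild type against 899 FPKM in knockout and all were past the fold, led by Nppa at 1.77 and 54.2 FPKM, and the 4 measured skeletal muscle markers were past the fold and higher too. The 5 smooth muscle markers summed to 359 FPKM in wild type against 342 FPKM in knockout, 2 higher and 3 lower, with a median of -0.05. Only 1 of them was past the fold, Myh11, the smooth muscle myosin, at 28.4 and 17.4 FPKM. Aldh1a2, the retinoic acid enzyme of meninges and of mesothelium, stood at 23.0 and 37.3 FPKM. The 7 lung mesenchyme markers summed to 286 and 289 FPKM with none past the fold. The erythroid markers summed to 1172 and 646 FPKM, 2 of the 3 measured ones being past the fold and lower, and the endothelial markers to 373 and 311 FPKM, 7 of 8 being lower. The part of these tissues in the Lum and Mfap4 differences was not tested.

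**Figure D3:**
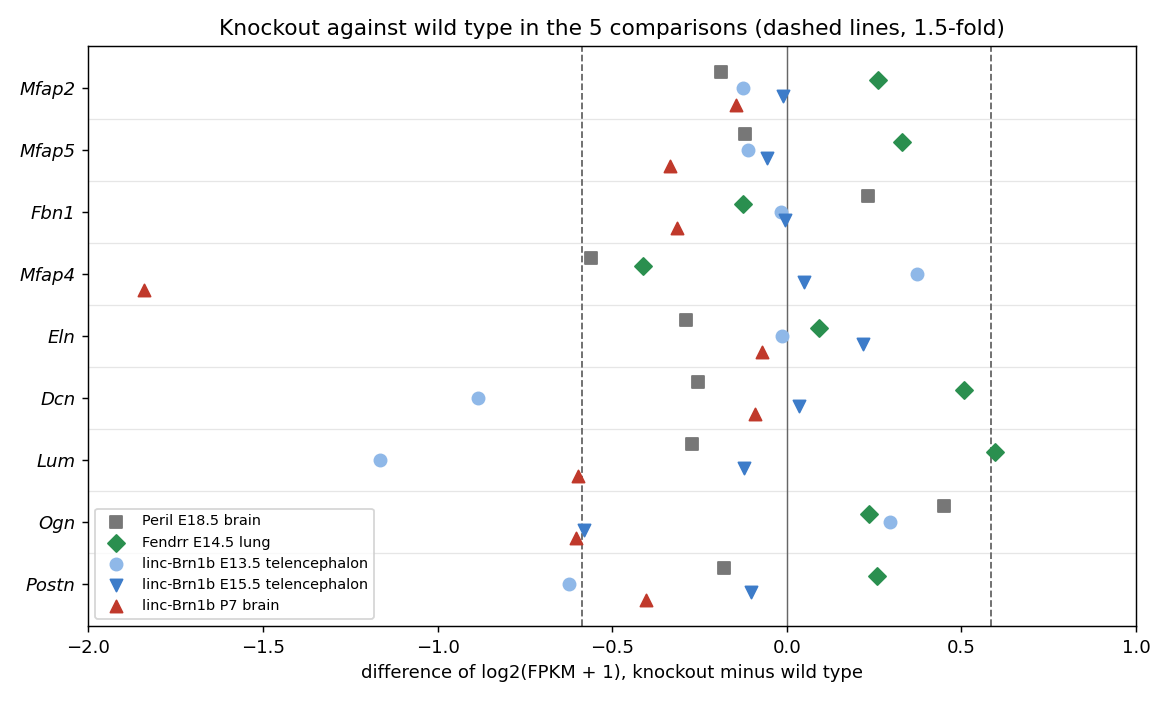
Difference of log2(FPKM + 1), knockout minus wild type, for each of the 9 genes (rows) in the 5 comparisons (symbols), with dashed lines at 1.5-fold. Each symbol compares 2 pooled levels. Mfap4 in P7 brain at -1.84 and Lum and Dcn in E13.5 telencephalon at -1.16 and -0.88 lie furthest out, and Mfap2 stays between -0.19 and 0.26 in all 5.

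Across the 5 knockout comparisons, no member stood on the same side of wild type in all of them. Mfap4 was lower in 3 and higher in 2, with differences from -1.84 to 0.37. Lum and Postn were lower in 4 and higher only in lung, and Ogn was lower in 2 and higher in 3. Mfap2 and Eln kept within the fold in all 5 comparisons, from -0.19 to 0.26 and from -0.29 to 0.22. The 3 linc-Brn1b comparisons come from a single table and the other 2 from tables of their own, and the difference between comparisons was not tested.

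The linc-Brn1b groups also allow a comparison by age within each genotype. Between E13.5 and E15.5 telencephalon Lum, Dcn and Postn were lower at the later age, and the Y chromosome genes differed as well. In wild type Lum stood at 12.0 and 0.129 FPKM, Dcn at 13.2 and 1.26 FPKM and Postn at 4.43 and 0.746 FPKM, and these 3 were past the fold and lower, beside 8.06% of all genes. None was past the fold and higher, beside 8.66%. In knockout the same 3 and Ogn (2.42 to 0.757 FPKM) were past the fold and lower, beside 7.56% of all genes, and none was higher, beside 10.4%. In knockout the scaling mattered again: of the genes past the fold, 57.9% were higher as deposited and 31.2% after rescaling to TPM, on which scale Fbn1 also passed the fold.

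The microfibril and elastin genes lay within the fold between these ages as deposited. In wild type Mfap4 stood at 27.6 and 28.4 FPKM, Eln at 4.61 and 5.20 FPKM, Mfap2 at 92.7 and 71.7 FPKM and Fbn1 at 3.42 and 2.30 FPKM, and Ogn, at 1.79 and 1.63 FPKM, lay within it too. In knockout the differences were -0.28 for Mfap4, 0.38 for Eln, -0.25 for Mfap2 and -0.41 for Fbn1. Mfap5 was far below the minimum, at 0.136 and 0.103 FPKM in wild type and 0.0508 and 0.0612 FPKM in knockout. All 8 fibroblast collagens were past the fold and lower in wild type, with sums of 96.6 and 9.31 FPKM, and the meningeal markers summed to 41.2 and 6.13 FPKM. Lum, Dcn and Postn were thus lower beside the collagens, and whether the meninges were kept to the same extent at both ages was not tested.

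From E15.5 telencephalon to P7 brain members differed in both directions, and here age and tissue cannot be told apart. In wild type, 5 of 8 measured members were past the fold and higher in P7 brain, beside 23.5% of all genes. Another 2 of the 8 were past it and lower, beside 27.2%. In knockout the counts were also 5 and 2 of 8, beside 24.5% and 27.4%, and the names were the same. The lower count is near the share of all genes in both genotypes, so nothing is read from it. Dcn stood at 1.26 FPKM in E15.5 telencephalon and 22.5 FPKM in P7 brain of wild type, 17.8 times as high, and Eln at 5.20 and 17.9 FPKM. Lum stood at 0.129 and 3.66 FPKM, Ogn at 1.63 and 8.05 FPKM and Postn at 0.746 and 5.17 FPKM.

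The 2 members past the fold and lower were Mfap2 and Mfap4. Mfap2 stood at 71.7 and 12.5 FPKM in wild type and at 71.2 and 11.2 FPKM in knockout, 5.75 and 6.37 times lower in P7 brain. Mfap4 stood at 28.4 and 10.8 FPKM in wild type, 2.64 times lower, and at 29.4 and 2.29 FPKM in knockout, 12.9 times lower. The step of Mfap4 was therefore larger in the knockout, which restates its low P7 level. Fbn1 stood at 2.30 and 3.23 FPKM in wild type and at 2.29 and 2.40 FPKM in knockout, and lay within the fold. Mfap5 was below the minimum, at 0.103 and 0.891 FPKM in wild type and 0.0612 and 0.499 FPKM in knockout. In wild type Mfap5 was past the fold and higher with no minimum level and on the TPM scale.

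Other lists also differed along this step. Of the 8 collagens 7 were past the fold and higher in wild type, with sums of 9.31 and 76.3 FPKM, and the 5 measured meningeal markers were all past it and higher, led by Slc6a13 at 0.0570 and 10.2 FPKM. The 6 telencephalon markers were all past the fold and lower, with sums of 413 and 85.2 FPKM. Among the other small leucine-rich proteoglycans, Fmod, the fibromodulin gene, stood at 0.341 and 7.48 FPKM and Bgn, the biglycan gene, at 8.51 and 18.2 FPKM. The proteoglycan members were thus higher with the collagens, and Mfap2 and Mfap4 were lower with the telencephalon markers. With the tissue changed, the part of either was not tested.

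**Figure D4:**
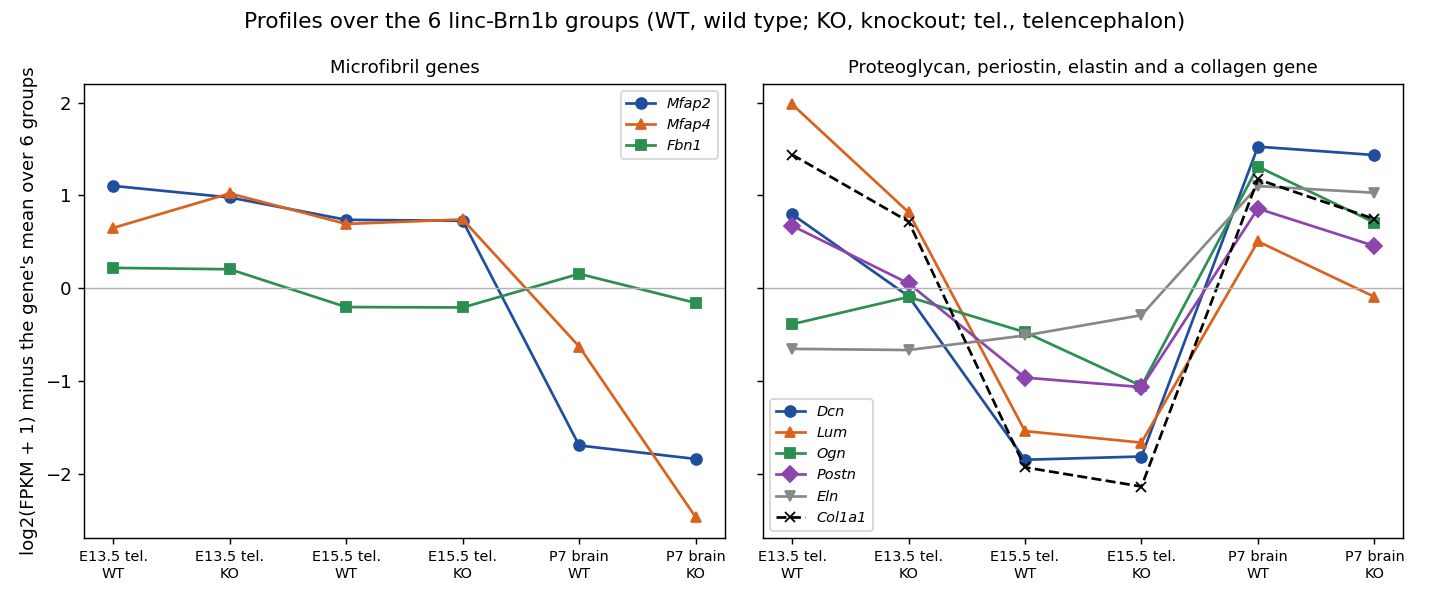
Log2(FPKM + 1) of each gene minus its own mean over the 6 linc-Brn1b groups, which stand in order of age with wild type before knockout. Lines join groups only to guide the eye. Mfap2 and Mfap4 lie high at both embryonic ages and low at P7, where the knockout of Mfap4 is lowest, while Dcn, Lum and Postn dip at E15.5 as Col1a1 (dashed) does.

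The genes most like each member over the 6 linc-Brn1b groups were found by the root mean square difference of these centred profiles, among 13513 other genes. Nearest to Mfap4 was Pax6, a transcription factor of radial glia and of cerebellar granule cells, at 0.27, which stood at 15.3 FPKM in wild type against 5.43 FPKM in knockout at P7, and then Hjurp at 0.29 and B3gnt5 at 0.33. The profile of Mfap4 includes the low P7 knockout level on which the set was chosen, so genes near it had to be low in that group. Nearest to Mfap2 was Msi1, an RNA-binding protein of neural progenitors, at 0.07. Nearest to Dcn was Col6a1 at 0.21, followed by the gap junction gene Gja1 at 0.30 and Serpinf1 at 0.36. Nearest to Lum were Col3a1 at 0.45, Colec12 at 0.52 and Col1a1 at 0.55. Postn and Ogn are added after their values were seen. Nearest to Postn were Mrc1 and F13a1, genes of macrophages, at 0.12 and 0.13, and Dab2 at 0.14, and nearest to Ogn were Gramd3 at 0.19, Myo6 at 0.20 and Ednrb at 0.20. The 6 groups share 1 normalization, and a small distance says only that the levels ran alike.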

How the data were processed

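Per the submitters' processing notes and the study's methods, paired-end reads were mapped by TopHat2 to the mm9 genome, transcripts were built with Cufflinks 2.0.2, and Cuffdiff2 estimated levels. The deposited values are FPKM, scaled across libraries by the authors and given as 1 value per group in 3 tables, with 0 columns of values per library. The tables also hold the authors' fold changes, test statistics, p-values and q-values, which were not used. The smallest value above 0 was 2.66e-08 FPKM, so whole reads could not be recovered.

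Groups came from the sample labels, and 10 group columns were used. Within a table, the difference of log2(FPKM + 1) was taken for 5 comparisons of knockout with wild type and 4 by age. A gene was past the fold at 1.5-fold or more with a mean of at least 1 FPKM. All 9 genes are named in every comparison, and of each gene list up to 4 genes with the largest difference past the fold. Likeness was the root mean square difference of centred profiles, with the 3 nearest genes. The members and lists were chosen with earlier results of these data known, and the cerebellum, Hox and pituitary lists after values were seen. The rule was checked on real levels in which chosen genes were changed by a known factor without noise, which tests the arithmetic only. Python 3.11.15, pandas 2.3.3 and numpy 2.4.6 were used. Alternatives were a pseudocount of 0.1, no minimum or a minimum of 5 FPKM, a fold of 2, centring, and rescaling to TPM. After rescaling, the pseudocount and the minimum stayed at 1 on the TPM scale. Levels are larger numbers on that scale, so both weigh less than 1 FPKM does.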

Additional observations from a re-analysis of the deposited data

How the results depend on the processing

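Of 77 recomputed values, 62 stayed close to the value given (a count within 1.5 times, a log2 difference within 0.1), and 15 moved. The Mfap4 difference at P7 was -2.19 with a pseudocount of 0.1 FPKM and -2.01 on the TPM scale. The median member difference at E13.5, -0.07 as deposited, turned to 0.10 on the TPM scale, and that at E15.5 turned from 0.02 to -0.01 with no minimum level. In the Peril brain the count of members past the fold went from 0 to 1 (Mfap4, lower). This was with a pseudocount of 0.1 FPKM and on the TPM scale, beside 1.40% of all genes lower at each. In the Fendrr lung the count went from 1 to 0 at a fold of 2, beside 0.572% of all genes higher. It did so on the TPM scale too, beside 1.82% higher. At E15.5 the count went from 0 to 1 (Ogn, lower) with a pseudocount of 0.1 FPKM, after centring and on the TPM scale. The shares of all genes lower were 0.444%, 0.281% and 0.485%. At a fold of 2 the count went from 3 to 1 at E13.5 (Lum) and at P7 (Mfap4). Of all genes, 1.63% and 0.501% were lower there. With a minimum of 5 FPKM, fewer genes are counted. The count went from 4 to 0 between E13.5 and E15.5 in knockout, beside 10.8% of all genes higher and 7.32% lower. It went from 7 to 4 between E15.5 and P7 in each genotype. Shares of all genes there were 20.4% higher and 29.3% lower in wild type, and 22.1% and 29.5% in knockout. The cause of the other shifts was not tested.

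No paired analysis was possible because the tables hold 1 pooled value per group. For the same reason leaving out a library was not run, depth per library is unknown, and a difference near the fold has no spread between animals to be set against.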
